A study of Mus musculus with 22 samples.

Results

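The members of the BCL2 family other than Bim were examined in the spleen of cyclin D1 transgenic mice, a model of mantle cell lymphoma (MCL). The 10 genes were Bcl2, Bcl2l1, Mcl1, Bcl2l2, Bax, Bak1, Bbc3, Pmaip1, Bmf and Bid, and every probe of the array listed under one of these symbols was taken. This gave 29 of 45281 probes, for 9 of the 10 genes. No listed probe carried the symbol Bax, so Bax was not analysed here. The question was whether loss of Bim, or disease, came with a shift in other pro-survival or pro-death members, across the groups and the stimuli.

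BCL2 family proteins set the threshold for cell death at the mitochondrion. Pro-survival members (Bcl2, Bcl2l1, Mcl1, Bcl2l2) hold the effectors Bax and Bak1 in check, and the effectors permeabilise the outer mitochondrial membrane once released. BH3-only members such as Bim, Bbc3, Pmaip1, Bmf and Bid respond to stress signals by binding the pro-survival proteins or by activating the effectors, and Bim, encoded by Bcl2l11, is a main regulator of lymphocyte number.

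All 22 mice carried the cyclin D1 transgene and received sheep red blood cells, abbreviated SRBC, as an antigen that needs T cell help. Bim was also deleted in the B cells of 14 of them. Of these 14, 7 developed MCL (here diseased Bim-deleted) and 7 did not develop disease (non-diseased Bim-deleted), and a further 8 mice had the transgene only and no disease. The diseased group held 3 mice given SRBC with irradiation (I), 1 given SRBC with pristane (P), an oil that provokes inflammation, and 3 given SRBC alone (A). The non-diseased Bim-deleted group held 3, 2 and 2 mice of these stimuli, and the transgene-only group 3, 2 and 3. Mice are named by the stimulus letter and number of their titles, such as I_2. The sources used here do not state the ages, the transgene's promoter or the Cre line. Stimulus was unevenly spread over the groups, and the diseased group had 1 pristane mouse.

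Each spleen was measured on 1 Illumina bead array, and values are log2 intensities that the authors had normalized, with a median of 6.55 on each array. Within a group, pairs of arrays had r = 0.907 to 0.991 across probes, which are not independent replicates. Spleen markers were present: the B cell marker Cd79b averaged 12.8 ± 0.12 in diseased Bim-deleted mice, 12.3 ± 0.53 in non-diseased Bim-deleted mice and 12.3 ± 0.79 in transgene-only mice (SD, n = 7, 7 and 8). In bulk spleen, fewer cells of a type and less RNA per cell cannot be told apart.

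The genes that the design alters come before the members. Ccnd1 encodes cyclin D1 and averaged 9.92 ± 0.40 in diseased Bim-deleted mice, 10.1 ± 0.47 in non-diseased Bim-deleted mice and 10.3 ± 0.47 in transgene-only mice (SD, probe ILMN_1221503). Bcl2l11 (probe ILMN_3157568) had a lowest, median and highest log2 intensity of 7.64, 8.51 and 8.88 in diseased Bim-deleted mice, 7.62, 7.75 and 7.95 in non-diseased Bim-deleted mice, and 7.88, 8.28 and 8.52 in transgene-only mice. The non-diseased Bim-deleted mice lay low, with 4 of 7 below every transgene-only mouse, and the diseased mice spanned both ranges. The non-diseased Bim-deleted minus transgene-only difference was -0.44 ± 0.16 (SE; two-sided exact permutation p = 0.00186 for this probe alone; limma adjusted p = 0.9995 over all probes). A second Bcl2l11 probe, ILMN_2590638, had medians of 7.51, 7.02 and 7.23 in diseased Bim-deleted, non-diseased Bim-deleted and transgene-only mice. The sources used here do not say whether either probe lies in the deleted part, and cells other than B cells keep the gene.

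Of the 29 probes, 24 lay above their array's 40th percentile in 7 or more of the 22 mice and entered the tests: 7 for Bcl2, 3 for Bcl2l1, 1 for Mcl1, 4 for Bcl2l2, 1 for Bak1, 3 for Bbc3, 2 for Pmaip1, 1 for Bmf and 2 for Bid. The filter looks at all mice and not at the groups. Each gene is described by its brightest probe unless another is named. Mcl1 was the brightest at a mean of 11.4 over the 22 mice, brighter than 98.9% of probes. Bid averaged 8.70, Bbc3 8.30, Bcl2 7.999, Bcl2l2 7.78, Bcl2l1 7.74, Bmf 7.26, Bak1 6.98 and Pmaip1 6.75. Brightness depends on the probe as well as on the RNA, so these values do not rank the genes. The 5 probes that were left out averaged 6.46 to 6.50, below the 60th percentile of an array at 6.61, which is taken here as the edge of background.

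No member probe passed limma's test in any of the 8 comparisons made (Benjamini-Hochberg adjusted p, threshold 0.05, over 30013 probes). For diseased minus non-diseased Bim-deleted mice 0 of 24 member probes were called, against 1.75% of all probes tested. For non-diseased Bim-deleted minus transgene-only mice it was 0 of 24, against 0% of all probes, and for diseased Bim-deleted minus transgene-only mice 0 of 24, against 4.57% of all probes. At an unadjusted limma p under 0.05, 5, 0 and 1 of the 24 passed in these 3 comparisons (20.8%, 0% and 4.17%), where 15%, 3.33% and 19.9% of all probes did. In all 3 comparisons the groups overlapped for all 24 member probes, where the groups did not overlap for 0.416%, 0.0167% and 0.896% of all probes. These comparisons share mice, so they are not independent of each other. The median difference of the 24 probes was 0.04, -0.01 and 0.03, beside -0.0012, -0.0015 and -0.00045 over all probes. The 95% confidence interval of every one of the 24 differences lay within 1 log2 unit of 0 in all 3 comparisons, and 19, 22 and 21 of them lay within 0.5.

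**Figure D1:**
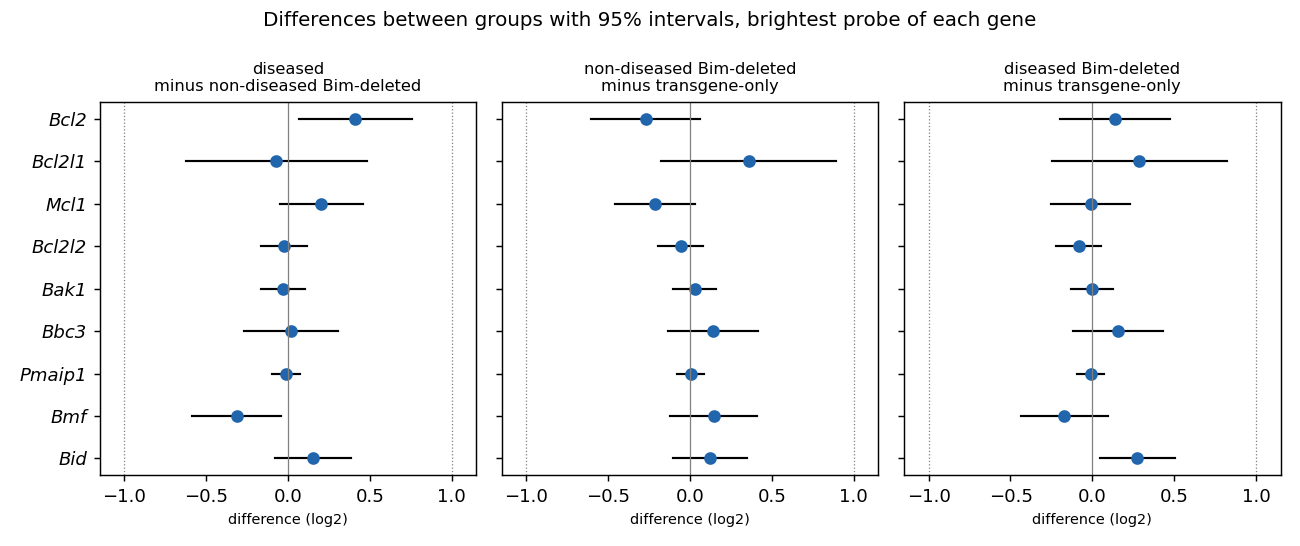
Difference in log2 intensity (x axis) for the brightest probe of each of 9 BCL2 family genes (y axis) in the 3 group comparisons. Points are limma estimates, bars are 95% confidence intervals and dotted lines mark a difference of 1 in either direction. All intervals stay inside the dotted lines, those of Bcl2 and Bmf leave 0 in the diseased minus non-diseased comparison, and that of Bid leaves 0 in the diseased minus transgene-only comparison.

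Among the pro-survival members, Bcl2, the founding member and an inhibitor of both effectors, carried 4 of the 5 unadjusted differences of diseased minus non-diseased mice. These 4 were higher in diseased mice, as were 8% of all probes at that threshold, and the fifth, Bmf, was lower, as were 7.02% of all probes. Its brightest probe, ILMN_1249366, had a lowest, median and highest log2 intensity of 7.56, 8.29 and 8.61 in diseased Bim-deleted mice, 7.07, 7.83 and 8.19 in non-diseased Bim-deleted mice, and 7.55, 8.09 and 8.22 in transgene-only mice. Diseased mice had 8.61, 8.31 and 8.50 with irradiation, 7.96 with pristane and 8.29, 7.56 and 8.04 with SRBC alone. Non-diseased Bim-deleted mice had 7.83, 7.62 and 8.19 with irradiation, 7.07 and 7.62 with pristane and 8.13 and 7.92 with SRBC alone. The groups overlapped, and 4 of 7 diseased mice lay above every non-diseased Bim-deleted mouse. The difference was 0.41 ± 0.17 (SE; 95% interval 0.065 to 0.758; limma adjusted p = 0.234; two-sided exact permutation p = 0.0600), or 1.33-fold, and did not pass.

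The next Bcl2 probe, ILMN_1249021, averaged 7.83 ± 0.22 in diseased Bim-deleted mice, 7.46 ± 0.29 in non-diseased Bim-deleted mice and 7.64 ± 0.19 in transgene-only mice (SD, n = 7, 7 and 8). Its difference between diseased and non-diseased mice was 0.37 ± 0.12 (SE; 95% interval 0.119 to 0.627), with the smallest adjusted p of any member in this comparison (limma adjusted p = 0.131; two-sided exact permutation p = 0.0239). The other 2 with an unadjusted p under 0.05 were ILMN_2706514, at 0.25 ± 0.11 (limma adjusted p = 0.274), and ILMN_1215796, at 0.21 ± 0.10 (limma adjusted p = 0.310). Xist, which is transcribed from the inactive X chromosome of female cells, moved with these groups. Its brightest probe, ILMN_2475156, averaged 7.93 ± 0.80 in diseased Bim-deleted mice, 6.95 ± 0.85 in non-diseased Bim-deleted mice and 7.34 ± 1.02 in transgene-only mice (SD). With each mouse's intensity for that probe added to the model as a covariate, chosen after seeing the data, 3 Bcl2 probes passed over all probes. They were ILMN_1249021 at 0.50 (limma adjusted p = 0.0450), ILMN_2706514 at 0.40 (limma adjusted p = 0.0411) and ILMN_1215796 at 0.34 (limma adjusted p = 0.0496). The share of all probes called in this setting is not given here, so these calls are not read as particular to Bcl2. Sex is not given in the labels used here, and its part in the Bcl2 difference was not tested otherwise. Markers of B-1a cells also moved with disease: 5 of 6 were measured, and 4 of 5 rose in diseased against non-diseased mice, where 1.75% of all probes were called. All diseased mice, with scores of 0.22 to 1.13, lay above the non-diseased Bim-deleted mice, with scores of -0.67 to 0.03. Of all probes, taken singly, these groups did not overlap for 0.416%. The mean pan-B score was 0.15 for diseased mice, -0.06 for non-diseased Bim-deleted mice and -0.07 for transgene-only mice. The part of these cells in the Bcl2 difference was not tested. Without the 5 pristane mice the 4 differences were smaller, 0.28 for ILMN_1249366, 0.27 for ILMN_1249021, 0.14 for ILMN_2706514 and 0.17 for ILMN_1215796.

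The 6 Bcl2 probes with means above the edge of background fell into 2 sets by how they varied over the 22 mice. ILMN_1249366, ILMN_2706514 and ILMN_1249021 correlated with each other at r = 0.754 to 0.952, and ILMN_2682162, ILMN_1215796 and ILMN_2597567 at r = 0.806 to 0.947, while pairs from different sets had r = 0.322 to 0.643. The split was not sharp, since ILMN_1249021 had r = 0.601 to 0.643 with the second set. The probes share the same 22 libraries, so these values are descriptions. The second set was marked by 1 diseased mouse, I_2, whose values were 8.95 for ILMN_2682162, 7.49 for ILMN_1215796 and 7.11 for ILMN_2597567, above every other mouse. In the first set the same mouse had 8.31, 7.59 and 8.20 for ILMN_1249366, ILMN_2706514 and ILMN_1249021, and only the last was the highest of all mice. The correlations between probes were not computed without I_2. Leaving out I_2 brought the ILMN_1215796 difference to 0.11 (limma adjusted p = 0.433), against 0.21 with it, and the ILMN_1249021 difference to 0.31. The annotation assigns ILMN_2682162 to a different Bcl2 transcript from the other probes that carry an accession. ILMN_1215796 and ILMN_2597567 carry the same accession as the first set, so the sets do not follow the annotation.

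**Figure D2:**
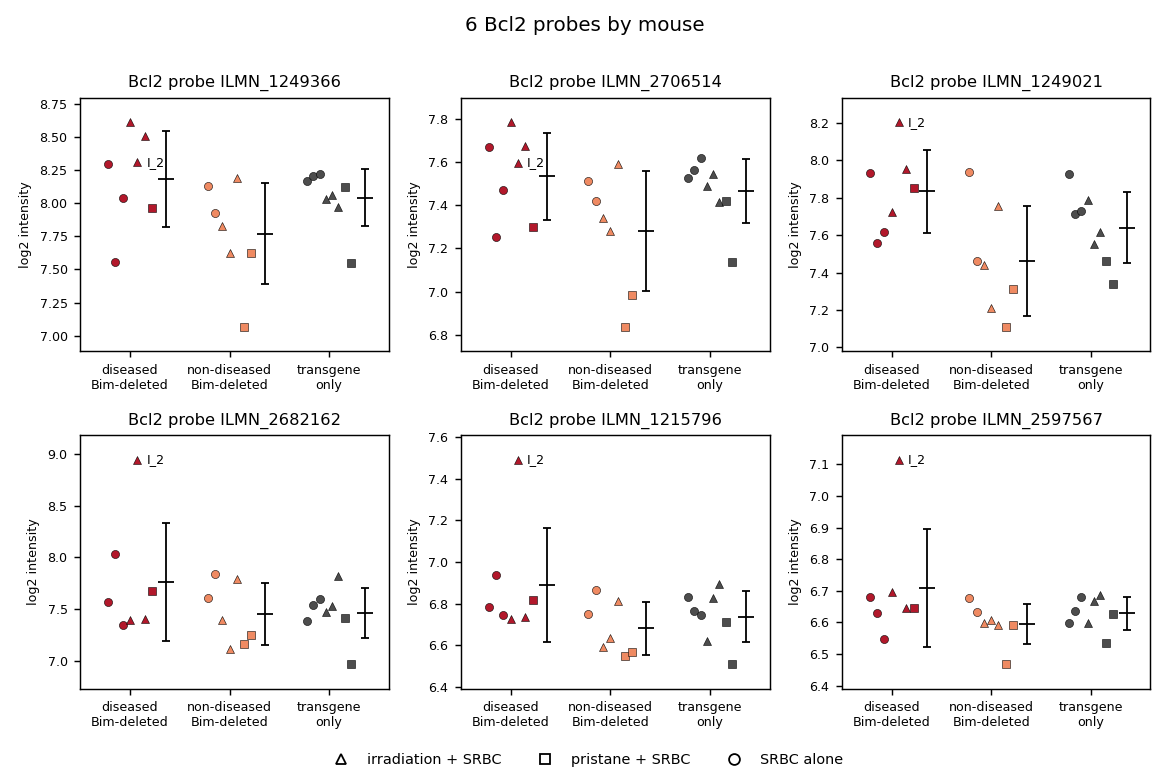
Log2 intensity (y axis) of 6 Bcl2 probes in each mouse, by group, with mouse I_2 labelled. Symbols give the stimulus, and the bar beside each group is the mean with its SD (n = 7, 7 and 8). In the lower row, ILMN_2682162, ILMN_1215796 and ILMN_2597567, the diseased mouse I_2 stands above every other mouse, which the values of ILMN_1249366 and ILMN_2706514 in the upper row do not show.

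Against the transgene-only mice no Bcl2 probe passed in either Bim-deleted group. For ILMN_1249366 the difference was -0.27 in non-diseased Bim-deleted mice (95% interval -0.607 to 0.063) and 0.14 in diseased mice (95% interval -0.196 to 0.475). Non-diseased Bim-deleted mice thus gave the lowest mean of the 3 groups and diseased mice the highest, with neighbours in that order overlapping. ILMN_2597567 and ILMN_2500078, the dimmest kept Bcl2 probes at means of 6.64 and 6.51, had diseased minus non-diseased differences of 0.11 and -0.02.

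Bcl2l1, which encodes BCL-XL, varied more between mice than any other member, with an SD of 0.52 over the 22 mice. Diseased Bim-deleted mice had 8.32, 7.56 and 7.37 with irradiation, 7.36 with pristane and 7.77, 8.45 and 7.95 with SRBC alone. Non-diseased Bim-deleted mice had 8.53, 7.65 and 8.13 with irradiation, 8.005 and 8.48 with pristane and 7.29 and 7.19 with SRBC alone. Transgene-only mice had 7.52, 7.70 and 8.05 with irradiation, 7.08 and 8.45 with pristane and 7.67, 6.94 and 6.88 with SRBC alone. The 3 groups overlapped almost entirely, at means of 7.82 ± 0.44, 7.89 ± 0.54 and 7.54 ± 0.56 (SD) for diseased Bim-deleted, non-diseased Bim-deleted and transgene-only mice. The diseased minus non-diseased difference was -0.07 (95% interval -0.623 to 0.481), non-diseased Bim-deleted minus transgene-only 0.36 (95% interval -0.175 to 0.894) and diseased minus transgene-only 0.29 (95% interval -0.247 to 0.823). Without the pristane mice the first of these turned to 0.15. The 3 kept probes of Bcl2l1 varied together, at r = 0.854 to 0.971.

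The level of Bcl2l1 followed the erythroid markers of the spleen. A marker score is the mean over a list's measured genes of the log2 intensity minus that gene's mean over all mice, and the erythroid score used 6 of 10 listed genes. Over the 22 mice Bcl2l1 and this score had Pearson's r = 0.760 (permutation p adjusted over 90 relations 0.0009) and Spearman's rho = 0.857 (adjusted permutation p = 0.0009). Without the 2 mice farthest from the median score r was 0.815, and within diseased Bim-deleted, non-diseased Bim-deleted and transgene-only mice it was 0.766, 0.814 and 0.805. The erythroid score averaged 0.46 in diseased Bim-deleted mice, 0.16 in non-diseased Bim-deleted mice and -0.54 in transgene-only mice, with a range of -3.70 to 1.19 in the last group. With the score as a covariate, added after seeing the data, the diseased minus transgene-only difference of Bcl2l1 turned to -0.06 and the non-diseased Bim-deleted minus transgene-only difference was 0.11. The diseased minus non-diseased difference, -0.07 without the score, did not shrink with it. BCL-XL is known as a survival factor of red cell precursors, and which cells held the Bcl2l1 RNA was not tested.

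Mcl1, a short-lived pro-survival protein that B cells depend on, had 11.42, 11.19 and 11.42 with irradiation, 11.77 with pristane and 11.65, 11.22 and 11.32 with SRBC alone in diseased Bim-deleted mice. Non-diseased Bim-deleted mice had 11.02, 11.05 and 11.61 with irradiation, 10.92 and 11.15 with pristane and 11.53 and 11.26 with SRBC alone. Transgene-only mice ranged from 11.07 to 11.75, and all 3 groups overlapped. The diseased minus non-diseased difference was 0.20 (95% interval -0.047 to 0.456) and became 0.07 without the pristane mice. The non-diseased Bim-deleted minus transgene-only difference was -0.21 (95% interval -0.458 to 0.029) and the diseased minus transgene-only difference -0.01 (95% interval -0.254 to 0.233).

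Bcl2l2, which encodes the pro-survival protein BCL-W, varied little. It averaged 7.74 ± 0.155 in diseased Bim-deleted mice, 7.77 ± 0.12 in non-diseased Bim-deleted mice and 7.82 ± 0.12 in transgene-only mice (SD). The differences of diseased minus non-diseased, non-diseased minus transgene-only and diseased minus transgene-only mice were -0.02, -0.06 and -0.08, with 95% intervals of -0.167 to 0.118, -0.196 to 0.079 and -0.221 to 0.055. Its other kept probes were dimmer, at means of 6.63 to 7.16, and their differences lay between -0.04 and 0.05.

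**Figure D3:**
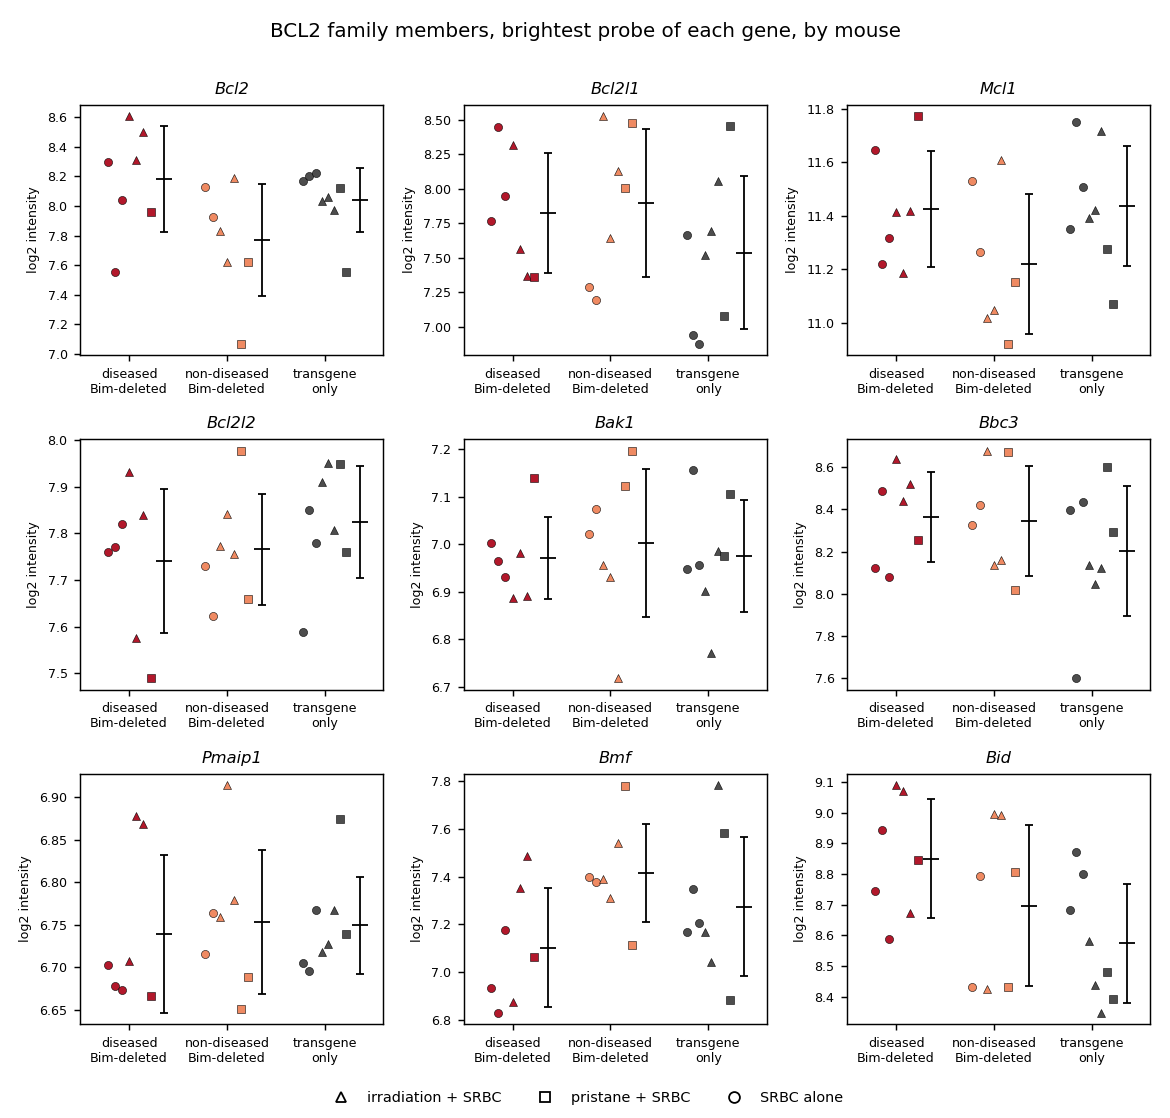
Log2 intensity (y axis) of the brightest probe of each of 9 BCL2 family genes in each mouse, by group (x axis). Symbols give the stimulus, and the bar beside each group is the mean with its SD (n = 7, 7 and 8). The groups overlap for every gene, the medians of Bcl2 are 8.29, 7.83 and 8.09 and those of Bmf 7.07, 7.39 and 7.19 in diseased Bim-deleted, non-diseased Bim-deleted and transgene-only mice.

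Of the effectors, Bak1 was measured by 1 dim probe. It averaged 6.97 ± 0.09 in diseased Bim-deleted mice, 7.003 ± 0.16 in non-diseased Bim-deleted mice and 6.98 ± 0.12 in transgene-only mice (SD), with group differences between -0.03 and 0.03. Intensities this close to background compress any change of the RNA.

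Among the BH3-only members, Bmf, which binds pro-survival proteins after loss of attachment and other stresses, had an interval below 0 in diseased minus non-diseased Bim-deleted mice. Diseased Bim-deleted mice had 6.87, 7.35 and 7.49 with irradiation, 7.07 with pristane and 6.93, 6.83 and 7.18 with SRBC alone. Non-diseased Bim-deleted mice had 7.39, 7.31 and 7.54 with irradiation, 7.78 and 7.11 with pristane and 7.40 and 7.38 with SRBC alone, and transgene-only mice ranged from 6.88 to 7.78 with a median of 7.19. The Bim-deleted groups overlapped, and 4 of 7 diseased mice lay below every non-diseased Bim-deleted mouse. The diseased minus non-diseased difference was -0.31 ± 0.13 (SE; 95% interval -0.586 to -0.041; limma adjusted p = 0.249; two-sided exact permutation p = 0.0268) and did not pass. It pointed the same way within each stimulus, at -0.18 with irradiation, -0.38 with pristane (1 diseased mouse) and -0.41 with SRBC alone. Against transgene-only mice, Bmf differed by 0.14 in non-diseased Bim-deleted mice (95% interval -0.121 to 0.407) and by -0.17 in diseased Bim-deleted mice (95% interval -0.435 to 0.093).

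The plasma cell markers moved with Bmf across mice. The plasma cell score, over 6 of 7 listed genes, averaged -0.08 in diseased Bim-deleted mice, 0.20 in non-diseased Bim-deleted mice and -0.10 in transgene-only mice. Bmf and this score had r = 0.686 over the 22 mice (permutation p adjusted over 90 relations 0.0096) and rho = 0.613, for which the adjusted permutation p was 0.0657. Without the 2 mice farthest from the median score r was 0.570, and within diseased Bim-deleted, non-diseased Bim-deleted and transgene-only mice it was 0.839, 0.690 and 0.548. The part of plasma cells in the Bmf difference was not tested.

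Bid, the BH3-only protein that caspase-8 cleaves to link death receptors to the mitochondrion, had its highest mean in diseased mice. Diseased Bim-deleted mice had 9.09, 9.07 and 8.67 with irradiation, 8.84 with pristane and 8.75, 8.94 and 8.59 with SRBC alone. Transgene-only mice had 8.58, 8.44 and 8.35 with irradiation, 8.48 and 8.39 with pristane and 8.68, 8.87 and 8.80 with SRBC alone. Diseased mice averaged above transgene-only mice with irradiation (difference 0.49) and with pristane (0.41, 1 diseased mouse). With SRBC alone the difference was -0.03. The diseased minus transgene-only difference was 0.28 ± 0.11 (SE; 95% interval 0.049 to 0.503; limma adjusted p = 0.154; two-sided exact permutation p = 0.0194), with 3 of 7 diseased mice above every transgene-only mouse, and did not pass. Non-diseased Bim-deleted mice lay between, at a mean of 8.70 ± 0.26 (SD). The second Bid probe, ILMN_2757287, is dimmer at a mean of 6.62, and its difference between diseased and transgene-only mice was 0.03.

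Bbc3, which encodes PUMA, and Pmaip1, which encodes NOXA, are both p53 targets. Bbc3 averaged 8.36 ± 0.21 in diseased Bim-deleted mice, 8.34 ± 0.26 in non-diseased Bim-deleted mice and 8.20 ± 0.31 in transgene-only mice (SD). Its diseased minus non-diseased difference was 0.02 (95% interval -0.267 to 0.303) and its non-diseased Bim-deleted minus transgene-only difference 0.14 (95% interval -0.136 to 0.417). Pmaip1 averaged 6.74 ± 0.09, 6.75 ± 0.08 and 6.75 ± 0.06 in diseased Bim-deleted, non-diseased Bim-deleted and transgene-only mice, just above background, and its 3 group differences lay between -0.01 and 0.0039.

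The stimuli were compared in a model of group and stimulus together. For SRBC with irradiation minus SRBC alone 0 of 24 member probes were called, against 0% of all probes, and 2 of 24 had an unadjusted limma p under 0.05 (8.33%, against 4.56% of all probes). For SRBC with pristane minus SRBC alone 0 of 24 were called, against 0.0133% of all probes, and 3 of 24 had an unadjusted limma p under 0.05 (12.5%, against 14.6%). The 95% interval of every member difference lay within 1 log2 unit of 0 here too.

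The 3 in the pristane comparison were all Bcl2 probes, and all were lower with pristane, as were 7.5% of all probes at that threshold. ILMN_2706514 had 7.30, 6.84, 6.98, 7.42 and 7.14 in the 5 pristane mice, against a lowest, median and highest of 7.25, 7.52 and 7.67 in the 8 mice given SRBC alone. The groups overlapped through diseased P_1 and transgene-only P_1. The difference was -0.34 ± 0.08 (SE; 95% interval -0.510 to -0.164; limma adjusted p = 0.110), the smallest adjusted p of any member in any comparison. It passed only when transgene-only P_1 was left out, at -0.40 (limma adjusted p = 0.0125). ILMN_1249366 differed by -0.35 (limma adjusted p = 0.317) and ILMN_1249021 by -0.26 (limma adjusted p = 0.326).

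Markers of several cell types moved with pristane, and B cell markers were low in 3 of the 5 pristane mice. Of the pan-B list, 6 of 8 genes were measured, 0 of 6 were higher with pristane, 0 passed limma's test and their median difference was -0.73. The pan-B score was -1.01 and -0.46 in non-diseased Bim-deleted P_1 and P_2 and -1.42 in transgene-only P_2, against 0.22 in diseased P_1, 0.08 in transgene-only P_1 and 0.016 to 0.32 in the other 17 mice. The 3 low mice had Bcl2 (ILMN_1249366) at 7.07, 7.62 and 7.55 and Mcl1 at 10.92, 11.15 and 11.07, while diseased P_1 and transgene-only P_1 had Bcl2 at 7.96 and 8.12 and Mcl1 at 11.77 and 11.28. No pooled correlation with the pan-B score is given for Bcl2 or Mcl1, since these 3 mice form a cluster of their own. T cell markers were lower with pristane by a similar median, -0.73, with 0 of 6 higher. Neutrophil markers were higher, 8 of 8 with a median of 0.83, as were megakaryocyte markers, 4 of 4 with a median of 0.55. Of all probes 48.5% were higher, and 0 of these 3 lists' genes passed limma's test. The pristane mice were split here too. The 3 mice low in pan-B, in the same order, had neutrophil scores of 1.74, 2.09 and 2.07. Their megakaryocyte scores were 1.09, 1.34 and 2.09, and their T scores -0.19, -0.54 and -1.36. Diseased P_1 had 0.13, 0.25 and -0.02 for these 3 lists. Transgene-only P_1 had -3.62 and -1.87, the lowest neutrophil and megakaryocyte scores of all mice, and a T score of 0.91. The part of these cell types in the pristane difference was not tested.

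**Figure D4:**
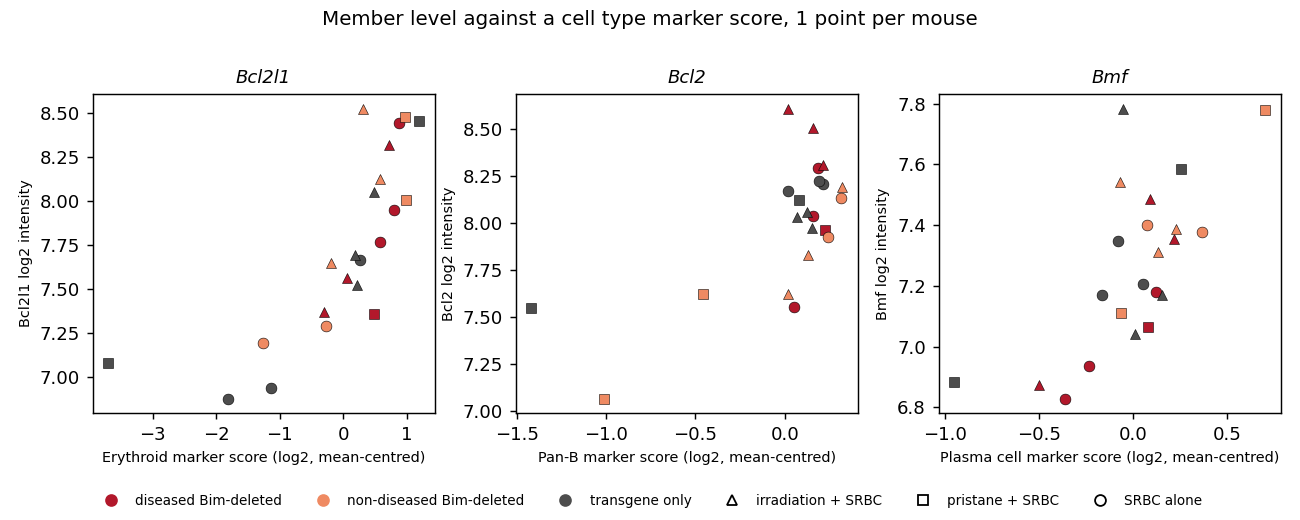
Log2 intensity of Bcl2l1, Bcl2 and Bmf (y axes) against the erythroid, pan-B and plasma cell marker scores (x axes, log2 units centred on the mean of the 22 mice), 1 point per mouse. Colours give the group and symbols the stimulus. Bcl2l1 climbs with the erythroid score, and 3 pristane mice with a pan-B score of -0.46 or less stand apart in the Bcl2 panel.

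With irradiation, Bak1 had a lowest, median and highest of 6.72, 6.90 and 6.99, against 6.93, 6.98 and 7.16 with SRBC alone. The ranges overlapped narrowly, and the difference was -0.12 ± 0.04 (SE; 95% interval -0.205 to -0.029; limma adjusted p = 0.998). Pmaip1 differed by 0.08 (limma adjusted p = 0.998). Bbc3, the other p53 target, differed by 0.08 (95% interval -0.186 to 0.351), and Mcl1 by -0.07 (95% interval -0.304 to 0.158). The sources used here do not state the time from irradiation to harvest.

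**Figure D5:**
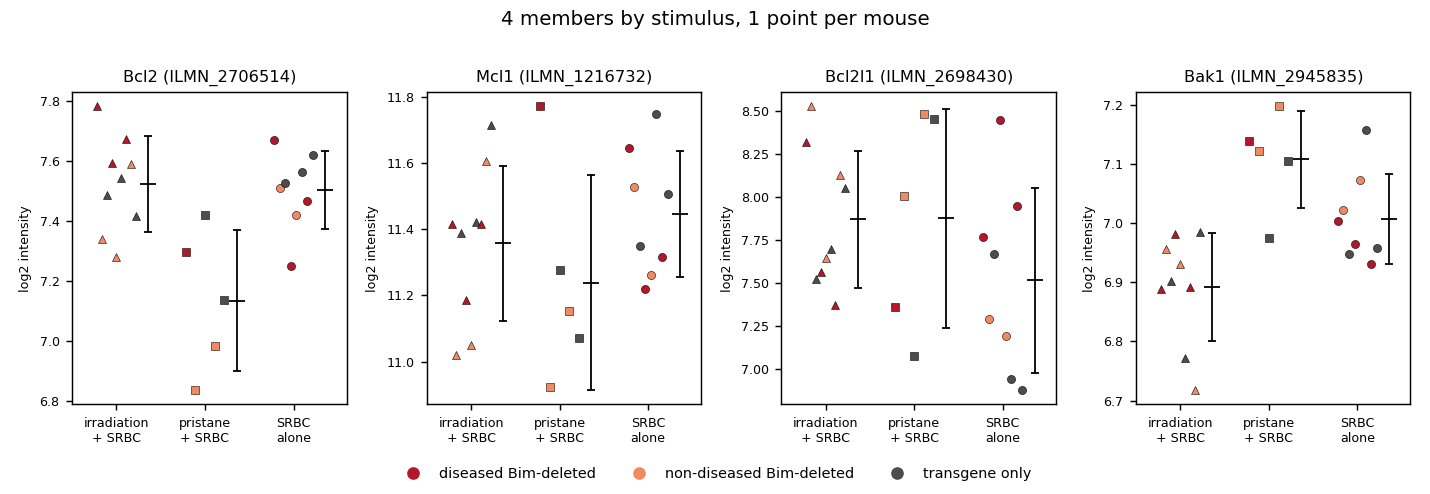
Log2 intensity (y axis) of Bcl2 (ILMN_2706514), Mcl1, Bcl2l1 and Bak1 in each mouse by stimulus (x axis; 9 mice with irradiation, 5 with pristane, 8 with SRBC alone). Colours give the group, and bars are means with SD. Bcl2 is low in 3 of the 5 pristane mice, at 7.14 or less, and Bak1 medians are 6.90 with irradiation and 6.98 with SRBC alone.

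Whether group differences depended on the stimulus was tested with interaction terms. For the diseased minus non-diseased difference with irradiation against that with SRBC alone, 0 of 24 members were called, against 0% of all probes, and 2 of 24 had an unadjusted limma p under 0.05 (8.33%, against 4.51%). Bcl2 (ILMN_1249366) differed between diseased and non-diseased mice by 0.59 with irradiation and by -0.06 with SRBC alone, an interaction of 0.66 (95% interval 0.026 to 1.28; limma adjusted p = 0.994). With irradiation the 3 diseased mice ranged from 8.31 to 8.61 and the 3 non-diseased mice from 7.62 to 8.19. The share of all probes separated with so few mice was not counted, so these ranges are a description. Bcl2l1 went the other way, at -0.35 with irradiation and 0.81 with SRBC alone, an interaction of -1.16 (95% interval -2.30 to -0.023; limma adjusted p = 0.994). The erythroid markers had a median interaction of -1.94 with 0 of 6 higher, and the neutrophil markers -1.64 with 0 of 8 higher, with 0 genes called in either list. Their part in the Bcl2l1 interaction was not tested. For the Bim deletion difference, 0 of 24 were called with irradiation against SRBC alone and 0 of 24 with pristane against SRBC alone, against 0% of all probes in both. At an unadjusted limma p under 0.05 these were 0 and 1 of 24 (0% and 4.17%, against 2.08% and 5.47% of all probes). Bid differed between non-diseased Bim-deleted and transgene-only mice by 0.35 with irradiation and -0.17 with SRBC alone (interaction 0.52, 95% interval -0.0051 to 1.04). Intervals were wide with 2 or 3 mice a cell, and 20, 21 and 20 of 24 lay within 1 log2 unit of 0 in the 3 interactions.

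The rest of the pathway was described by 4 lists, whose counts stand beside 1.75%, 0% and 4.57% of all probes called in diseased minus non-diseased, non-diseased Bim-deleted minus transgene-only and diseased minus transgene-only mice. Of the other BCL2 family genes 12 of 16 were measured, and 0 rose or fell in any of the group comparisons, with median differences of 0.05, -0.02 and 0.08 for diseased minus non-diseased, non-diseased Bim-deleted minus transgene-only and diseased minus transgene-only mice. They include Bcl2a1b and Bcl2a1d, pro-survival genes that are near-identical copies, so their probes may not tell them apart. Bcl2a1b averaged 10.4 ± 0.22 in diseased Bim-deleted mice, 10.2 ± 0.28 in non-diseased Bim-deleted mice and 10.2 ± 0.25 in transgene-only mice (SD). Of the genes downstream of the mitochondrion, such as Apaf1 and Casp9, 13 of 16 were measured and 0 rose or fell.

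Of the death receptor arm that acts through Bid, 9 of 11 genes were measured, and 1 rose and 0 fell in diseased against non-diseased Bim-deleted mice, where 1.75% of all probes were called. This was Tnfsf10, which encodes the death ligand TRAIL, at 7.19 ± 0.17 in diseased and 6.93 ± 0.09 in non-diseased Bim-deleted mice (SD; difference 0.26 ± 0.06, SE; limma adjusted p = 0.0439). The call was lost in 20 of 33 alternative settings, over which the adjusted p ran from 0.0202 to 0.112.

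Of 21 regulators of family members 17 were measured, and 1 rose and 1 fell in diseased against non-diseased Bim-deleted mice (1.75% of all probes called), while 0 rose and 2 fell in diseased against transgene-only mice (4.57% of all probes called). Dynll1, the dynein light chain that anchors Bim and, through a related chain, Bmf to the cytoskeleton, rose in diseased against non-diseased mice, at 11.19 ± 0.08 in diseased against 10.84 ± 0.15 in non-diseased Bim-deleted mice (SD; difference 0.35 ± 0.07, SE; limma adjusted p = 0.0114), and passed in all 33 alternative settings. Transgene-only mice had 10.99 ± 0.14, and the diseased minus transgene-only difference of 0.20 did not pass (limma adjusted p = 0.0834; past the threshold in 4 of 33 settings). Stat5a, a transcription factor that acts downstream of cytokine receptors and induces pro-survival members, fell to 7.88 ± 0.17 in diseased Bim-deleted mice, against 8.16 ± 0.12 in non-diseased Bim-deleted mice and 8.24 ± 0.12 in transgene-only mice. The differences were -0.28 (limma adjusted p = 0.0494, lost in 23 of 33 settings) and -0.37 (limma adjusted p = 0.00504, kept in 33 of 33). T cell markers were also lower in diseased mice, with a T score of -0.46 in diseased Bim-deleted mice, 0.09 in non-diseased Bim-deleted mice and 0.32 in transgene-only mice, and their part in the Stat5a difference was not tested. Trp63 fell by 0.10 in diseased against transgene-only mice (limma adjusted p = 0.0394) at a mean of 6.46 in diseased mice, below the edge of background, and the call was lost in 17 of 32 settings. In the comparison of non-diseased Bim-deleted with transgene-only mice 0 regulators rose or fell.

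The genes most like each member over the 22 mice were taken as the 3 with the highest Pearson correlation to its brightest probe. They are descriptions with no test, since all values share the same libraries and cell mixtures. For Bcl2 these were Arf3 (r = 0.925), Nfatc1 (0.870) and Cobll1 (0.856). For Bcl2l1 they were Rnf10 (0.950), Fbxo9 (0.938) and Ube2l6 (0.936). Mcl1 was most like Tfeb (0.840), Rbms2 (0.811) and Bcl11a (0.781), and Bmf most like Cd2bp2 (0.847), Plekhf1 (0.805) and Cacna1h (0.795). The closest genes to Bcl2l2, Bak1, Bbc3, Pmaip1 and Bid were Heca (0.747), Tead4 (0.823), Pianp (0.738), Samhd1 (0.800) and Hspa1b (0.730), in that order.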

How the data were processed

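Spleen RNA of 22 mice was measured on 1-colour Illumina bead arrays. The authors deposited normalized log2 intensities, with the same distribution on every array as quantile normalization gives, and this unit was read from the values. The sources used here do not state its method or software. The raw intensities were left out, since none of their 44 per-sample columns could be matched to a mouse by name. The design text counts 7 transgene-only mice, the titles list 8, and all 8 were used.

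Of 45281 probes, 34885 had 1 gene listed, 18 several and 10378 none. The 30013 probes above their array's 40th percentile in 7 or more arrays were tested as separate features with limma 3.58.1 in R 4.3.3 (lmFit, eBayes without trend, two-sided, Benjamini-Hochberg over all probes). Exact permutation tests of single probes used all 3432 or 6435 splits. Single mice were taken as replicates, and their number limits the precision. No mouse array duplicated another. Marker-score correlations were tested by permutation and adjusted over 90 relations.

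Named genes were all members, Bcl2l11 and Ccnd1, list genes that passed, and the 3 genes most like each member. Xist, Cd79b, Bcl2a1b and Bcl2a1d were named after their values were seen. The members and lists were chosen with earlier results of these data known. The limma step was tested on simulated data. Alternatives covered the probe filter, 1 probe per gene, eBayes settings, array weights, the samples fitted, stimulus as covariate, a replicate block, no pristane mice and each mouse left out.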

Additional observations from a re-analysis of the deposited data

Results flagged for a closer look

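The 24 tested member probes were each searched in every group for a mouse far from the rest by Dixon's criterion. There were 8 such cases, and chance alone marks about 1 in 20 of the groups searched. Probes of 1 gene in the same mouse vary together, so the cases are not independent. Diseased Bim-deleted mouse I_2 accounted for 4 of them, all Bcl2 probes: ILMN_2682162 at 8.95 (next diseased mouse 8.03), ILMN_1215796 at 7.49 (6.94), ILMN_2597567 at 7.11 (6.70) and, in the low direction and near background, ILMN_2500078 at 6.42 (6.51). Transgene-only mouse P_2 was low for Bcl2 ILMN_1249366 at 7.55 (next 7.97) and ILMN_2706514 at 7.14 (7.42). This mouse also had the lowest pan-B score of all, -1.42. Non-diseased Bim-deleted mouse P_1 was low for Bcl2 ILMN_2597567 at 6.47 (next 6.59). Transgene-only mouse P_1, with the lowest erythroid score of all at -3.70, was high for Pmaip1 ILMN_2670625 at 6.87 (next 6.77).

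For Pmaip1 probe ILMN_1245289, non-diseased Bim-deleted mice were all above transgene-only mice with irradiation (difference 0.0763) and all below them with pristane (difference -0.0581). The difference between these 2 stimuli was not tested, each cell held 2 or 3 mice, and the probe averages 6.53, below the edge of background. The share of all probes separated in this way with so few mice was not counted.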

How the results depend on the processing

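No called result changed sign. The count of member probes called stayed 0 in all planned settings that refitted the whole set of mice, the replicate block included. With the Xist level as a covariate, added after seeing the data, it was 3 for diseased minus non-diseased Bim-deleted mice. The share of all probes called with that covariate is not given here. With 1 mouse left out it ran from 0 to 1 for pristane minus SRBC alone (1 without transgene-only P_1) and was 0 for the other comparisons. Of all probes, diseased minus non-diseased mice called 1.75%. In counts this comparison called 333 with no filter, 1033 with array weights, 92 with only the groups compared, 1079 without the pristane mice, and 187 (without diseased A_1) to 1087 (without diseased P_1) with 1 mouse left out. Diseased minus transgene-only called 1372, against 3534 with array weights, 3806 without the pristane mice and 701 (without diseased A_2) to 2635 (without transgene-only P_2) with 1 mouse left out. Pristane minus SRBC alone called 4, against 2 with no filter, 37 with a 60th percentile filter, 15 with trend and robust settings, 80 with array weights, 0 with only those stimuli, 1 with the title number as a replicate block, and 0 (6 mice, each left out) to 1813 (without transgene-only P_1) with 1 mouse left out. The interactions called 0, and 0 to 2 (disease with irradiation), 0 to 3 (Bim deletion with irradiation) and 0 to 334 (Bim deletion with pristane) with 1 mouse left out. The cause was not tested. Deviations from the group means of mice with the same stimulus and title number had r = -0.32 to 0.66 (median -0.03, over 0.1 in 5 of 20 pairs), so the numbers were not taken to pair the mice.

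The number of mice, the 1 diseased pristane mouse and the uneven stimuli limit all group comparisons. Probes near background, among them Pmaip1 and the dimmer Bcl2, Bcl2l2, Bbc3 and Bid probes, have little range, and their narrow intervals bound intensity rather than RNA. Protein levels were not measured.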

Other observations

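Among the 90 relations of member levels with marker scores, 5 passed an adjusted permutation p of 0.05 by Pearson's r. They were Bcl2l1 with the erythroid and T scores, Bmf with the plasma cell score, and Bcl2 and Mcl1 with the pan-B score. The last 2 are not given as pooled correlations, since 3 pristane mice form a separate cluster in the pan-B score, and the relation within the other mice was not tested. Within diseased Bim-deleted mice, which hold none of the 3, r was 0.03 for Bcl2 and 0.38 for Mcl1. Within non-diseased Bim-deleted and transgene-only mice, which hold them, it was 0.94 and 0.92 for Bcl2 and 0.69 and 0.72 for Mcl1. Bcl2l1 had r = -0.709 with the T score (adjusted permutation p = 0.0096) and rho = -0.665 (adjusted permutation p = 0.05). Without the 2 farthest mice r was -0.644, and within diseased Bim-deleted, non-diseased Bim-deleted and transgene-only mice it was -0.768, -0.507 and -0.873. Among those that did not pass, Bmf had r = -0.560 with the B-1a score (adjusted permutation p = 0.0933; rho = -0.525; r = -0.429 without the 2 farthest mice). The B-1a score, over 5 of 6 genes, averaged 0.71 in diseased Bim-deleted mice, -0.32 in non-diseased Bim-deleted mice and -0.34 in transgene-only mice.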
